A study of Xenopus laevis with 12 samples.

Results

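A group of 94 genes was lower after thyroxine (T4) in the brains of *Xenopus laevis* tadpoles. These genes remained near the control level, by their means on a log2 scale, after a mixture of chemicals found in amniotic fluid. They were selected by their measured values, 94 of 51041 genes listed in the count tables. The level of a gene is given as CPM, its read count relative to all reads counted on genes in the same sample, scaled to 1000000 reads, and differences were taken between group means of log2(CPM + 0.5). A gene was a member if its control mean was at least 1 CPM, its T4 mean was at least 1 lower than the control mean on the log2 scale (a fall of 2-fold), all 4 T4 samples were below all 4 control samples, and the mixture mean differed from the control mean by less than 0.3. The T4 and mixture differences from control are therefore given as a description, with no test read from them.

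RNA was sequenced from whole brains at stage NF 47, after exposure that began just after fertilization, to ask how an early excess of thyroid hormone or a mixture of endocrine-disrupting chemicals affects brain gene expression. The groups were T4 at 10 nM, the amniotic mixture at 1x, which copies concentrations measured in human amniotic fluid, and an unexposed control that received the DMSO solvent alone, with 4 samples each. Each sample was a pool of brains from few tadpoles of the same group, so that variation between single animals was averaged only in part. By the paper, the 4 samples came from fewer matings than samples, and the labels do not say which sample came from which. The p-values below then measure only the spread between these samples, which are not 4 separate matings.

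T4 is the main hormone released by the thyroid gland, and deiodinase enzymes in target tissues convert it to the more active T3. T3 binds nuclear receptors that raise the transcription of some genes and lower that of others, and an excess of hormone is known to lower the hypothalamic and pituitary genes that drive the thyroid. In the tadpole, the same hormones direct metamorphosis, and the brain responds to them before the thyroid gland has formed fully. Genes carry numbers in the files instead of names, and 0 of them could be paired with a name from the annotation at hand, so the functions of the members, other genes of the thyroid pathway and markers of brain cell types were not analysed here. The members are described by their levels instead. The 2 that a rule singled out are named by number, gene27474 with the largest fall and gene681 with the highest control level. Other members are given by their rank in fall or in control level and were chosen after their values had been seen.

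The reads on genes numbered from 10614787 to 11582420 per T4 sample, from 10420292 to 11685566 per mixture sample and from 10518396 to 11080269 per control sample. A count of 3, taken here as the floor of detection, was at most 0.288 CPM, and floors cover counting error only. Many *X. laevis* genes exist as L and S copies of similar sequence, and reads that fit both were dropped when only unique mappings were kept, which makes the counts of such pairs uncertain. The strand setting of the counting is not given in the sources used here, which leaves overlapping genes uncertain as well. The samples also fell into 2 sets across all groups, with 2 samples of each group in each set: those with the title numbers 1, 2, 5, 6, 9 and 10 (set 1) and the rest (set 2). The labels do not say what divides the sets, which were first seen in these counts. The paper describes experiments at 2 time points and samples from 2 matings, without naming the samples of each. Whether these are the sets was not tested.

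The clauses of the selection narrowed the genes in steps. Of the 51041 genes, 26401 had a control mean of at least 1 CPM, and 278 of these were at least 1 lower after T4 on the log2 scale. In 106 of the 278 the T4 and control samples overlapped, and in 172 they did not. Of the 172, the mixture mean was lower than the control mean by 0.3 or more in 68, higher by 0.3 or more in 10, and closer in the 94 members. The same clauses with the direction turned round gave 435 genes raised by T4 alone.

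Several members sat close to the limits. The T4 difference nearest to the limit was -1.00005 among the members and -0.998 among the genes left out by that clause alone, of which there were 2964. For the mixture, the largest absolute difference was 0.29955 among the members and the smallest was 0.301 among 78 genes left out. The lowest control mean was 1.04 CPM inside and the nearest of 3 genes outside had 0.924 CPM. The smallest gap between the lowest control and the highest T4 sample was 0.00085 on the log2 scale, whereas it was -0.0388, an overlap, in the nearest of 44 genes outside.

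The falls were mostly moderate in size. The T4 difference had a median of -1.17, quartiles of -1.35 and -1.08 and a lowest value of -2.31, beside a median of -0.05 over the 26401 genes. Of the 94 members, 2 were at -2 or below and 92 between -2 and the limit. As a share of the control mean, the T4 mean had a median of 36.9% and a highest value of 49.2%. It was 25% or less in 11 members. In whole brains, fewer cells of a type and less RNA per cell cannot be told apart for any of these falls.

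**Figure D1:**
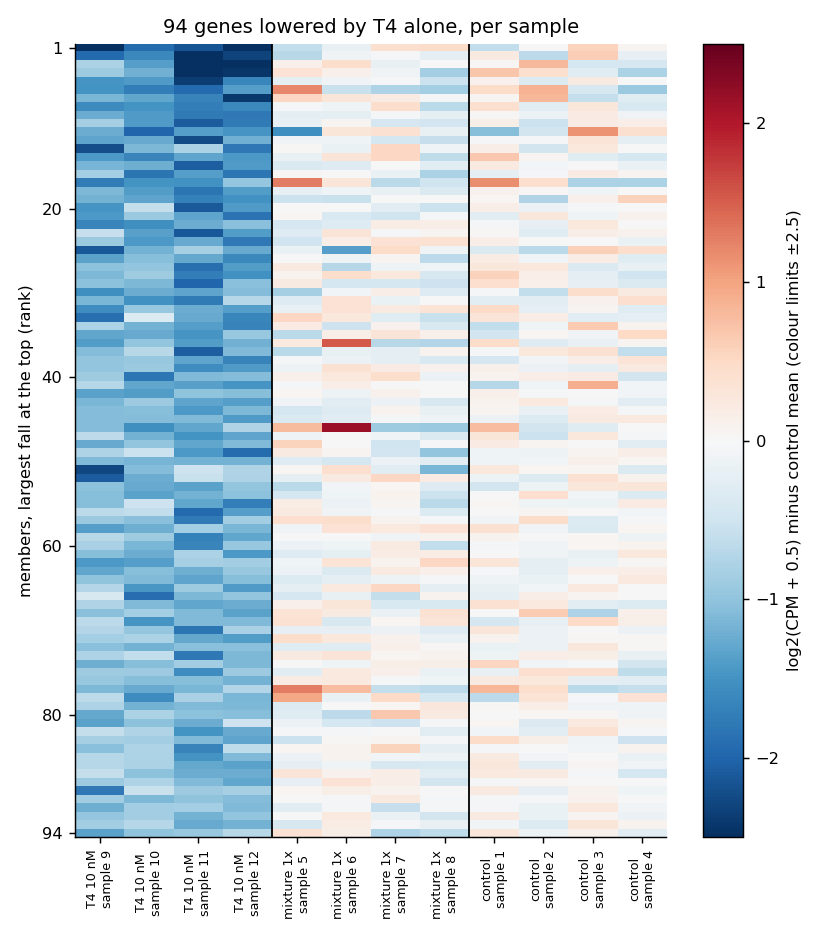
Level of each of the 94 members (rows, largest fall at the top) in each of the 12 samples (columns: T4, mixture, control), as log2(CPM + 0.5) minus the control mean of that member, with colours limited at 2.5 in either direction. The 4 T4 columns are blue throughout, as the selection required, with darker cells in sample 11, and single red cells stand out among mixture samples 5 and 6.

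gene27474 had the largest fall. It had 0.00, 0.283, 0.173 and 0.00 CPM in T4 samples 9 to 12, 1.44, 2.13, 3.44 and 3.59 CPM in mixture samples 5 to 8, and 1.44, 2.48, 3.90 and 2.63 CPM in control samples 1 to 4. All T4 samples were far under the others, and the mixture samples spread over the same range as the controls. The T4 difference was -2.31 and the mixture difference was 0.01. The T4 counts were 0, 3, 2 and 0 reads, at or under the floor in each sample, so that the level was at least 9.70-fold lower than the control mean of 2.61 ± 1.01 CPM (SD, n = 4).

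gene681 had the highest control level and the fifth largest fall. It had 50.5, 53.0, 26.9 and 45.1 CPM in T4 samples 9 to 12, 121, 132, 139 and 97.5 CPM in mixture samples 5 to 8, and 151, 112, 165 and 143 CPM in control samples 1 to 4. The highest T4 sample was less than any mixture or control sample, and the mixture samples overlapped with the controls. The mean was 43.9 ± 11.8 CPM after T4, 122 ± 18.2 CPM after the mixture and 143 ± 22.6 CPM in the control (SD, n = 4 each). The difference was -1.72 for T4 and -0.22 for the mixture, and between 311 and 563 reads per T4 sample stood behind it. gene681 was no longer a member without control sample 2, its lowest control, because the mixture difference then passed the limit.

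The second member by size of fall was also of low level. Its level was 0.721, 1.04, 0.259 and 0.443 CPM after T4, 2.40, 3.89, 3.99 and 3.42 CPM after the mixture, and 4.96, 2.48, 6.66 and 3.57 CPM in the control. The T4 samples did not overlap with either of the other groups, and the difference was -2.12. The third and the fourth member by size of fall were more abundant, and both were higher in set 1 than in set 2 in every group by their means. The third had 11.5, 7.54, 2.85 and 2.22 CPM after T4, 22.4, 27.7, 17.8 and 20.5 CPM after the mixture, and 20.9, 36.2, 14.9 and 15.2 CPM in the control, a T4 difference of -1.94. The fourth had 19.5, 15.5, 5.61 and 6.30 CPM after T4, 47.0, 39.96, 34.4 and 19.9 CPM after the mixture, and 58.9, 48.0, 29.5 and 21.0 CPM in the control, a T4 difference of -1.78. In the fourth, the highest T4 sample was of set 1 and close to the lowest control sample, which was of set 2. Within each set the T4 samples were far under the mixture and control samples, with T4 differences of -1.58 in set 1 and -1.98 in set 2.

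**Figure D2:**
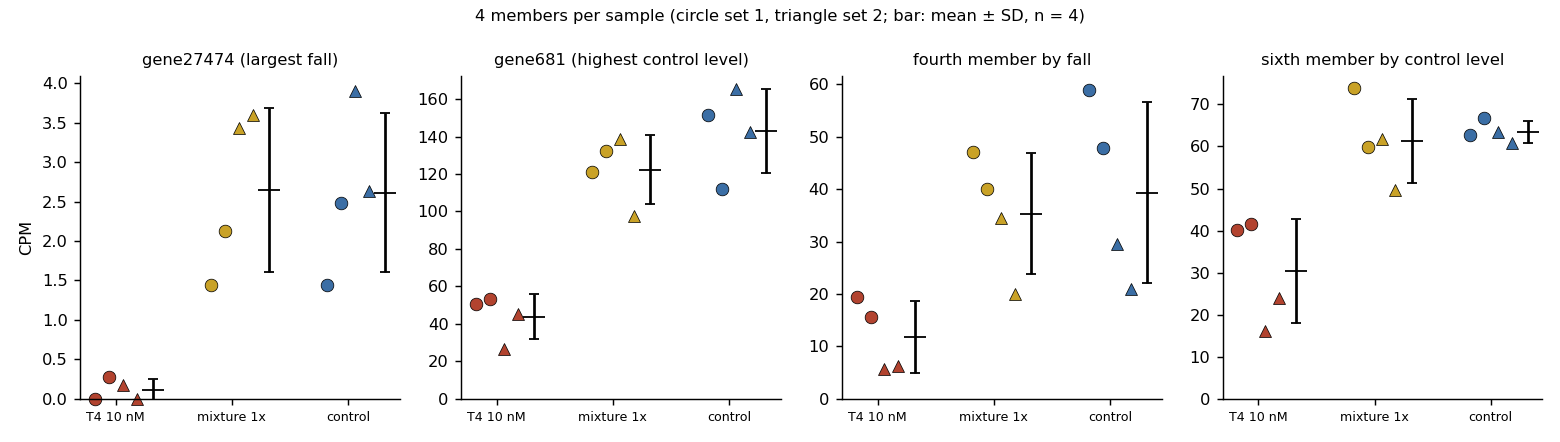
CPM in each sample (circles set 1, triangles set 2) of gene27474, gene681, the fourth member by size of fall and the sixth by control level, for T4, mixture and control from left to right, with the mean ± SD of 4 samples beside each group and bars cut off at 0. T4 points lie under all control points in each panel, and in the fourth and sixth the T4 points of set 2 lie under those of set 1.

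The 8 members with at least 50 CPM in the control had a median T4 difference of -1.14, from -1.72 in gene681 to -1.02 in the second by control level. The median SD of their T4 samples on the log2 scale was 0.22, beside 0.09 over all genes of that level, and it ranged from little in some members to 0.64 in the sixth by control level, which is described with the sets. The second member by control level had 58.9, 49.0, 53.4 and 50.6 CPM after T4, 108, 104, 127 and 106 CPM after the mixture, and 104, 103, 116 and 108 CPM in the control. The T4 samples were all under every sample of the other groups, and the T4 difference was -1.02. The fourth by control level had 39.9, 36.8, 37.0 and 34.1 CPM after T4, 89.4, 91.7, 75.9 and 72.1 CPM after the mixture, and 90.8, 94.1, 66.0 and 64.9 CPM in the control. Its mixture and control samples were both higher in set 1, while its T4 samples were alike, and the T4 difference was -1.06. The T4 samples varied least in the member ranked 50 by fall, with 8.74, 8.38, 8.29 and 8.25 CPM after T4, 15.4, 14.2, 17.5 and 16.1 CPM after the mixture, and 18.1, 18.6, 21.2 and 20.02 CPM in the control. It was the only member whose 4 mixture samples were all below the 4 controls, with a mixture difference of -0.29.

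The members were mostly genes of low count. Their mean level ranged from 0.114 to 53.0 CPM after T4, with a median of 2.22, from 1.15 to 122 CPM after the mixture, with a median of 5.83, and from 1.04 to 143 CPM in the control, with a median of 6.25. The median control level over the 26401 genes was 21.8 CPM. CPM is not scaled for transcript length, so these are levels of reads and give no order of transcripts between genes. Members made up 8 of 6537 genes with at least 50 CPM in the control (0.122%), 28 of 11336 between 10 and 50 CPM (0.247%), 47 of 6471 between 2 and 10 CPM (0.726%) and 11 of 2057 between 1 and 2 CPM (0.535%). The median T4 difference on the log2(CPM + 0.5) scale was alike in these classes, at -1.14, -1.15, -1.21 and -1.23 from the highest to the lowest level. The pseudocount shrinks differences most at low level, so this is no likeness in fold. The T4 mean was 30.7% to 49.2% of the control mean in the 8 members of the highest class. In the 11 of the lowest class it was 9.0% to 33.2%.

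The depth behind the falls was uneven. T4 counts ranged from 160 to 653 reads per sample in the 8 members of at least 50 CPM, against 486 to 1740 reads in the control. In the 11 members between 1 and 2 CPM the T4 counts ranged from 0 to 8 reads and the control counts from 5 to 36 reads. All T4 samples had under 10 reads in 16 members, a T4 sample had no read in 5, and every T4 sample was at or under the floor in 2, gene27474 and the member ranked 36 by fall. That member had 1, 3, 1 and 2 reads after T4 against 18, 8, 9 and 12 reads in the control, so that its level was at least 4.03-fold lower. By contrast, 58 members had at least 10 reads in all 12 samples. Between 10 and 50 CPM, members varied more among samples of the same group than other genes did. Their median SD on the log2 scale was 0.29 after T4, 0.26 after the mixture and 0.19 in the control. Over all genes of that class it was 0.14 in each group. Between 1 and 2 CPM it was 0.33, 0.56 and 0.40 in the members, beside 0.35, 0.36 and 0.38, so this did not hold after T4. The classes are set by control level, and members had lower levels after T4.

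**Figure D3:**
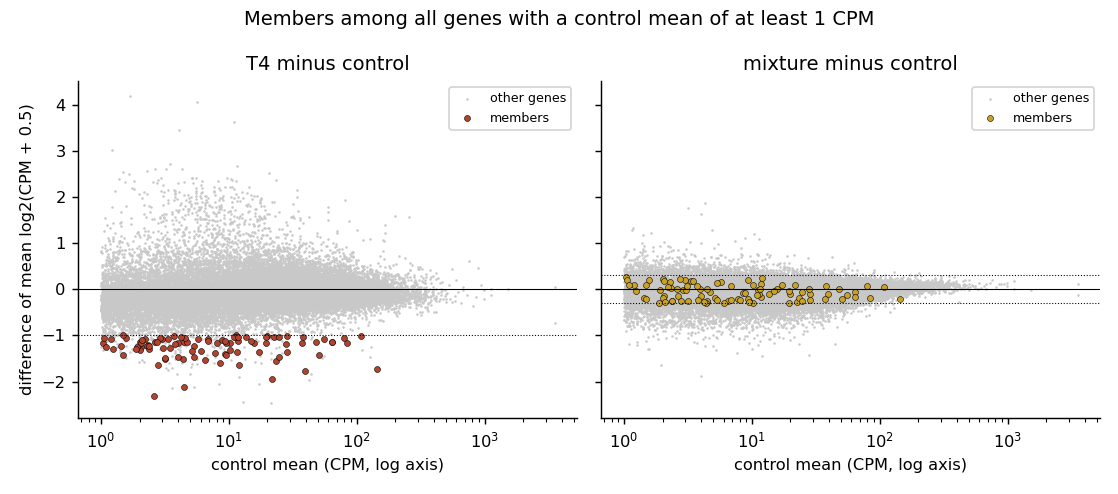
Difference of mean log2(CPM + 0.5) from the control (vertical axis) against the control mean in CPM (log axis) for all 26401 genes with at least 1 CPM in the control (grey) and the 94 members (coloured), for T4 on the left and the mixture on the right. Dotted lines mark the limits of the selection (-1 for T4, 0.3 either side of 0 for the mixture), and members lie from 1.04 to 143 CPM, most of them just under the T4 limit.

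The levels of the members were also added up in each sample. Their summed level was 685, 650, 508 and 561 CPM in T4 samples 9 to 12, 1372, 1414, 1467 and 1250 CPM in mixture samples 5 to 8, and 1528, 1405, 1523 and 1390 CPM in control samples 1 to 4. The T4 samples were apart from all others, while mixture samples 5 and 8 were below the lowest control and samples 6 and 7 were within the control range. Every member had been selected with all T4 samples below all control samples and a mixture mean near the control mean. Nothing is therefore read from the separation of the sums or from their shares of the control. The mean was 601 ± 80.8 CPM after T4, 1376 ± 92.3 CPM after the mixture and 1461 ± 74.5 CPM in the control (SD, n = 4 each), which put T4 at 41.1% and the mixture at 94.1% of the control. The 10 members with the highest control level held 51.3% of the sum after T4, 49.8% after the mixture and 50.1% in the control. The members held at most 0.0685% of the counts of a T4 sample and at most 0.153% of those of a control sample.

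**Figure D4:**
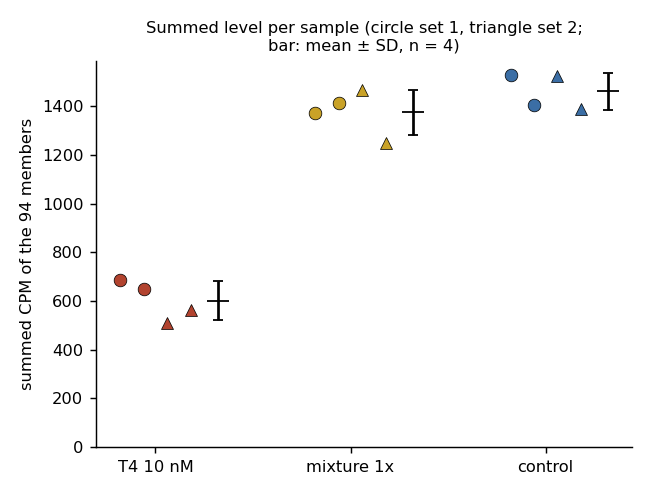
Summed CPM of the 94 members in each sample (circles set 1, triangles set 2) for T4, mixture and control from left to right, with the mean ± SD of 4 samples beside each group. The T4 samples lie between 508 and 685 CPM, the mixture samples between 1250 and 1467 and the control samples between 1390 and 1528.

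Within the limit of 0.3, the mixture differences leaned below the control. Their median was -0.09 and their range -0.30 to 0.27, with 59 members below and 35 above the control mean. Over all 26401 genes the median was -0.02, and 55.0% were below the control mean, against 62.8% of the members. The selection used these control samples and the mixture difference itself, and the 26401 genes were held to neither clause, so nothing is read from this lean. Among the members, 29 were lower by 0.2 to 0.3 and 7 were higher by 0.2 to 0.3, so that part of the group lay close to the limit on the lower side. The T4 and mixture differences share the 4 control samples and are given side by side without a relation between them.

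T4 and mixture samples rarely overlapped in the members. All 4 T4 samples were below all 4 mixture samples in 85 of 94 members (90.4%) and overlapped in 9, where 15.7% of the 26401 genes had T4 samples all below the mixture samples. The selection placed both groups relative to the same controls, so nothing is read from this count. The median difference of T4 from the mixture was -1.15. All mixture samples were below all control samples in 1 member, with 7.68% over all genes, and above them in 0. In 21 members the 4 mixture samples lay within the range of the controls. Mixture samples all above the controls, or all within their range, were not counted over all genes. Members were also limited in their mixture mean, so nothing is read from these counts of mixture against control samples.

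A near-zero mixture mean sometimes covered samples far apart. In 8 members a mixture sample was more than 1 away from the control mean on the log2 scale, and it was sample 5 in 4 members, sample 6 in 3, sample 7 in 0 and sample 8 in 1. Such samples were not counted over all genes, so nothing particular to the members is read from this count. The member with the lowest control level had 2.02, 5.84, 0.279 and 0.257 CPM in mixture samples 5 to 8, against 1.99, 0.551, 0.666 and 0.940 CPM in the control. Its samples 5 and 6, both of set 1, were above all controls and samples 7 and 8 were below all of them, and its T4 samples had 0 to 4 reads. Few reads stood behind its mixture samples 5 to 8 too, at 21, 63, 3 and 3. Its mixture difference was 0.27, the highest among the members. Its mean was nevertheless 2.10 CPM after the mixture against 1.04 CPM in the control. The pseudocount shrinks differences at such levels, so the limit of 0.3 is no limit in fold. The member ranked 77 by fall was similar, with 4.03, 2.69, 0.743 and 0.685 CPM after the mixture against 2.80, 2.02, 0.666 and 0.752 CPM in the control. There the mixture and the control samples were both high in set 1 and low in set 2, and mixture samples 5 to 8 had 42, 29, 8 and 8 reads.

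For the record of the calls, the quasi-likelihood test of edgeR was run on all 12 samples. It was adjusted by the Benjamini-Hochberg method over the 27141 genes that passed its filter on low counts. All 94 members passed this filter, which counted the mixture samples as well. With only the T4 and control samples, 86 members passed it and 85 were called lower after T4, with 2394 of 26465 genes called lower. The calls that follow are from all 12 samples. An adjusted p under 0.05 with a lower level after T4 than in the control was found for 91 members (96.8%), and for 9.54% of all genes tested. The 3 others were ranked 46, 51 and 77 by fall, with adjusted p of 0.101, 0.051 and 0.057 by edgeR. With the set as a second factor in the fit, 93 members were called lower, and 3627 of the 27141 genes. Against the mixture, 92 members were called lower after T4, with 15.1% over all genes. For the mixture against the control 0 members were called by edgeR, with 0.52% of all genes called in either direction. In this edgeR test an unadjusted p under 0.05 was found in 1 member (1.06%), and in 15.5% of all genes. These contrasts chose the members, so the counts describe the selection.

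The rule did not name the sets, but it used means and ranges over the samples of both. A member could thus pass through a larger fall in 1 set. The 26401 genes were not selected in this way, so medians over all genes are given beside the members as a description. Counts of members by their fall in each set have no such share beside them, and nothing is read from them. Computed within each set, the median T4 difference was -1.12 in set 1 and -1.29 in set 2, beside -0.07 and -0.03 over all 26401 genes. The fall was larger in set 2 in 60 members and larger in set 1 in 34. A fall of at least 1 was seen in set 1 in 61 members, in set 2 in 76 and in both sets in 43, and a fall of at least 0.5 in both sets in 91. The difference between the sets (set 2 minus set 1) had a median of -0.21, beside 0.03 over all 26401 genes. In the members it ranged from -1.33 to 1.95. It exceeded 1 in either direction in 14 members, 10 of them with the larger fall in set 2.

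**Figure D5:**
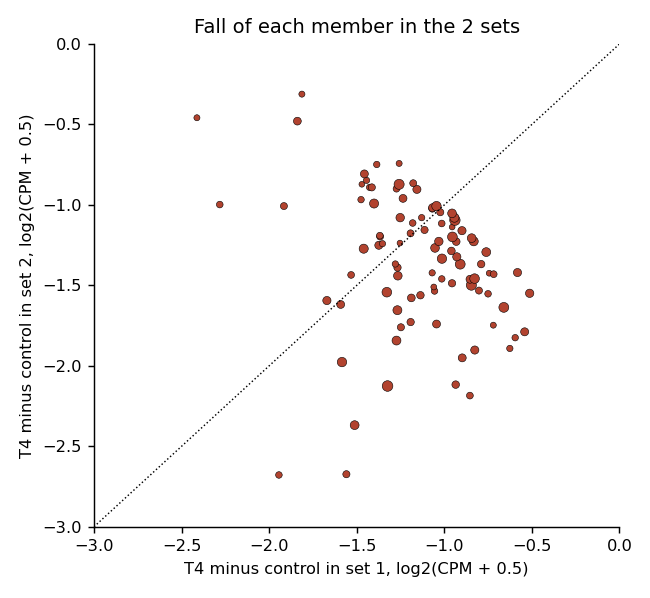
T4 minus control difference of each member on the log2(CPM + 0.5) scale in set 1 (horizontal) and set 2 (vertical), each from 2 T4 and 2 control samples. Larger points have a higher control level and the dotted line marks equal falls, with 60 members under it (larger fall in set 2) and 34 over it.

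Within T4, more members were lower in set 2 than in set 1, while in the control both directions were seen about as often. The difference between groups in this respect was not tested, and the shares over all genes are not limited to genes selected on their T4 fall. The median over members of set 2 minus set 1 was -0.24 within T4, -0.04 within the mixture and -0.02 within the control. The range over members was wide in each group, from -1.71 to 1.04 within T4, from -2.38 to 0.95 within the mixture and from -1.58 to 1.52 within the control. Both T4 samples of set 2 were below both of set 1 in 40 members (42.6%), with 21.6% over all genes, and above them in 7 (7.45%), with 24.2% over all genes. In the control, set 2 was below set 1 in 21 members (22.3%), with 26.8% over all genes, and above it in 28 (29.8%), with 21.7% over all genes. T4 sample 11 was the lowest of the T4 samples in 39 members, sample 12 in 21, sample 9 in 19 and sample 10 in 15. The lowest sample was not counted over all genes, so nothing is read from this order. The summed level after T4 was 45.5% of the control in set 1 and 36.7% in set 2.

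Larger falls in set 2 outnumbered larger falls in set 1 in every class of control level but the lowest. Of the 8 members with at least 50 CPM in the control, 7 fell more in set 2 and 1 in set 1, with medians of -0.95 in set 1 and -1.43 in set 2. Between 10 and 50 CPM 20 of 28 members fell more in set 2, and between 2 and 10 CPM 28 of 47. In the 11 members between 1 and 2 CPM the split was 5 and 6, with medians of -1.25 in set 1 and -1.24 in set 2. These splits were not counted over all genes of each class. The sixth member by control level had 40.1, 41.5, 16.1 and 23.9 CPM in T4 samples 9 to 12, 73.9, 59.8, 61.7 and 49.7 CPM after the mixture, and 62.7, 66.8, 63.4 and 60.7 CPM in the control. Its T4 samples 11 and 12 of set 2 were well under the others while its controls were alike, and the T4 difference was -0.66 in set 1 and -1.64 in set 2. The third by control level had 38.5, 38.5, 37.8 and 30.5 CPM after T4, 63.8, 67.2, 80.8 and 77.6 CPM after the mixture, and 74.5, 65.0, 96.3 and 97.5 CPM in the control. In this member the T4 samples were alike apart from sample 12, and set 2 was higher in the mixture and the control. The T4 difference was -0.85 in set 1 and -1.50 in set 2.

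In a fit with the sets as a factor, the T4 difference was tested for a change between sets (the interaction of T4 and set, edgeR with 6 residual degrees of freedom). No member passed, 0 of 94, and neither did any gene of the 27141 tested (0%). An unadjusted p under 0.05 was found in 22 members (23.4%), and in 8.53% of all genes. Unlike the genes at large, the members were selected on their T4 fall over both sets, so nothing is read from the 2 shares. The smallest adjusted p among the members was 0.216, for the third by control level. With no filter on low counts, 2 members were called, the third and the sixth by control level, with 79 of 38850 genes called. DESeq2, whose own filter left 4 members among the 4956 genes it tested, called 1, the third, with 60 genes called in all. A difference between the sets in the fall of single members was thus not called in the edgeR fit as filtered, with 2 T4 and 2 control samples per set.

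Between the sets themselves, with the groups held as a factor, 13 members (13.8%) were called by edgeR at an adjusted p under 0.05, close to the 13.4% of all genes. Of these, 10 were lower and 3 higher in set 2. Over all genes, 1883 were called lower and 1742 higher in set 2. The third member by size of fall had an adjusted p of 0.00751 and a log2 fold change of -0.91 (set 2 minus set 1), and the fourth had 0.000537 and -1.04. Both were lower in set 2 in each of the 3 groups. The sets were first seen in these counts, and these values are a description of them.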

How the data were processed

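The deposited values are counts, whole numbers of reads that the authors assigned to each gene in each of 12 samples, without normalization. Per the labels' processing notes the tools were cutadapt (version 1.15), FastQC (version 0.11.2), Bowtie2 (version 2.2.4) and HTSeq (version 0.9.1). By the paper, duplicated reads were reduced to a single copy before mapping, and trimmed reads of a fixed length were selected. What these steps changed in the levels was not tested. The authors kept reads that mapped to a single place, and removed a batch effect only after counting, so the counts still hold it. Each table has 51041 genes and 5 rows that name no gene, with a share of reads between 38.3% and 42.2%, and these rows entered neither the library sizes nor the tests.

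From the counts, CPM was computed on the sum of the gene rows, with a pseudocount of 0.5 CPM on the log2 scale. edgeR (version 4.0.16, in R version 4.3.3) was run with filterByExpr (minimum count of 10), TMM normalization and the quasi-likelihood test, with Benjamini-Hochberg adjustment over all genes tested, first tested on simulated data. The fits held the 3 groups, the groups and the set, or each group in each set. DESeq2 (version 1.42.0) was an alternative. Python (version 3.11.15) and its package matplotlib (version 3.10.9) were used for CPM values and figures.

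The members, the sets and the lists were chosen with earlier results of these data known. The named genes followed a rule: the member with the lowest T4 minus control difference and the one with the highest control mean. Samples of the same group differed beyond sampling noise (in all pairs, chi-square over degrees of freedom of 3.02 to 6.92). Alternatives were other pseudocounts, limits and scalings, no filter, other fits and each sample left out in turn. The summed level under other settings and the median fall within each set were added after seeing the data.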

Additional observations from a re-analysis of the deposited data

Results flagged for a closer look

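Single samples that stood apart from the other 3 of their group were looked for in 26 members and in the summed level, 81 groups in all, by the gap to the nearest sample over the range of the group. Chance flags about 1 in 20 such groups, and 6 were found. Among the T4 samples, sample 10 of the seventh member by control level had 24.0 CPM, against 26.2 to 26.4 CPM in the others, and sample 12 of the third by control level had 30.5 CPM, against 37.8 to 38.5 CPM.

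Among the mixture samples, sample 7 had 127 CPM in the second member by control level, against 104 to 108 CPM in the others, and 22.3 CPM in the ninth member by size of fall, against 19.4 to 19.8 CPM. In the sixth member by size of fall, sample 5 had 6.24 CPM, against 1.11 to 1.48 CPM in the others. Among the controls, sample 2 of the tenth member by size of fall had 4.23 CPM, against 7.13 to 7.42 CPM in the others.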

How the results depend on the processing

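Membership depended on the settings, and the falls given here were recomputed for the same 94 members. The 94 members became 149 with a pseudocount of 0.1 CPM (83 shared) and 32 with 2 CPM (29 shared), 52 with a control minimum of 5 CPM, 45 with the mixture within 0.15 and 146 within 0.6. With 1 sample left out the number was 87 to 133, the highest without T4 sample 9, and 23 members were kept in all 12 such runs. It was 107 to 133 without a T4 sample, 87 to 116 without a control sample and 88 to 95 without a mixture sample. Without a T4 or control sample, the clause on overlap also asked for fewer samples to be apart. gene681 was lost with the mixture within 0.15 and gene27474 with the minimum of 5 CPM. TMM and DESeq2 scaling gave 83 members each, and 77 were kept under both. The median fall of -1.17 was -1.43 with a pseudocount of 0.1 CPM and -0.88 with 2 CPM, -1.29 in set 2 alone, and -1.21 to -1.14 with 1 sample left out. For gene27474 it was -3.84 with a pseudocount of 0.1 CPM and -1.10 with 2 CPM. For gene681 it was -1.73 with 0.1 CPM and -1.69 with 2 CPM, so gene27474 did not have the largest fall with 2 CPM. By edgeR, 85 to 93 members were called lower after T4 with 1 sample left out, and 9 to 15 between the sets. Over all genes, 1803 to 2600 were called lower after T4 in these runs, and 2831 to 3445 between the sets. For the interaction of T4 and set, members called were 2 with no filter on low counts and 1 with DESeq2, but 0 in each of the 12 runs with 1 sample left out. Of all genes, 79 were called with no filter, 60 with DESeq2 and 0 to 12 in the runs with 1 sample left out. T4 as a share of the control in the summed level was 39.2% to 43.2% in such runs. The cause of these changes was not tested, apart from the limits themselves. Members with few T4 reads limit the size of the largest falls. The set was the only block the samples allowed, and with it as a second factor edgeR called 93 members lower after T4. Over all genes, 3627 were called lower against 2589 without the set as a factor. In either direction, 8379 genes were called against 6587. No paired analysis was possible because the title numbers, which run from 1 to 12, are not shared by any 2 groups, so that single samples could not be matched.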
